A study of Homo sapiens with 9 samples.

Results

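The fibroblast growth factor (FGF) receptors and ligands of 3 related human breast epithelial cell lines were examined in 9 RNA-seq libraries, 3 per line. The 9 genes were taken by symbol from the deposited gene tables, and each symbol was found once among 62666 genes: the signalling receptors FGFR1, FGFR2, FGFR3 and FGFR4, the receptor-like gene FGFRL1, the ligands FGF1, FGF2 and FGF5, and the carrier FGFBP1. The transcripts listed under the same gene identifiers gave the receptor isoforms. MCF10A is a non-tumorigenic line of spontaneously immortalised mammary epithelial cells, MCF10AT1 was made from it by introducing an activated HRAS gene, and MCF10Ca1a descends from them and forms tumours. All were grown as cultures in DMEM/F12 with insulin, hydrocortisone, cholera toxin and human epidermal growth factor, and the labels name no FGF among the additions. MCF10A and MCF10Ca1a received 5% horse serum and MCF10AT1 2.5%, so line and serum cannot be told apart where MCF10AT1 is compared. The labels do not say whether the libraries of a line came from separate cultures, so the p-values measure the spread between these libraries, which may be technical. This spread was unequal. The chi-square of counts per degree of freedom between 2 libraries was 10.7 to 68.3 in MCF10A. It was 3.42 to 15.7 in MCF10AT1 and 2.42 to 4.14 in MCF10Ca1a, and 1 fit pooled the lines.

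FGFs are secreted proteins that bind receptor tyrosine kinases together with heparan sulphate chains on the cell surface. Binding pairs the receptors, and the adaptor FRS2 then passes the signal mainly to the RAS and MAP kinase pathway. In FGFR1, FGFR2 and FGFR3 a pair of alternative exons encodes the end of the third immunoglobulin-like domain. The form with the first of them, IIIb, is typical of epithelial cells and binds ligands made by the neighbouring stroma, whereas the IIIc form is typical of mesenchymal cells. FGFR4 has no such pair. In the mammary gland the IIIb form of FGFR2 is known for its part in the outgrowth of the epithelial ducts.

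The alternative exons of FGFR3 are shown as an example of the pair, because every isoform value given here rests on which exon a transcript holds. They were read from GENCODE 29 transcripts (GRCh38), with the 5′ to 3′ sequence of the sense strand. Capitals mark runs of at least 5 bases that were identical and unbroken in both aligned exons. FGFR3 IIIb lies at chr4:1802914-1803064 and FGFR3 IIIc at chr4:1803692-1803836, both on the plus strand.
FGFR3 IIIb: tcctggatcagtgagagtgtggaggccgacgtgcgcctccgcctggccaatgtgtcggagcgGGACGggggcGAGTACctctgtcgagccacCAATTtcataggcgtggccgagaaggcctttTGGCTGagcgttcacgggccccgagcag
FGFR3 IIIc: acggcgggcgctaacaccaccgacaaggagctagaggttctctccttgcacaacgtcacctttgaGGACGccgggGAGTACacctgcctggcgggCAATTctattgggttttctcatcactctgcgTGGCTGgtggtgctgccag
The exons were 151 and 145 bases long, and 48.1% of their aligned positions were identical.

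Library totals ran from 32.9 M to 69.5 M counts, and the MCF10Ca1a libraries, at 32.9 M to 35.2 M, were the shallowest. All 10 mammary epithelial markers reached 1 TPM (length-corrected transcript abundance, scaled to the same total in every library) in every line, with summed levels of 3200 to 4960 TPM. EPCAM rose most and KRT14 fell most between MCF10A and MCF10Ca1a (edgeR log2 fold changes 3.14 and -5.65, adjusted p 2.01e-14 and 4.18e-15). The 7 fibroblast and other mesenchymal markers summed to 6.43 to 7.23 TPM in MCF10A, 27.7 to 31.5 in MCF10AT1 and 1.94 to 2.33 in MCF10Ca1a. DCN made up most of this sum in MCF10AT1 with a mean of 27.9 TPM, while COL3A1 was listed at 0 in MCF10A and COL1A2 at 0 in both other lines. The 4 endothelial markers summed to at most 1.32 TPM in MCF10A and MCF10AT1 and to 15.6 to 20.8 in MCF10Ca1a, nearly all of it PECAM1, while KDR fell from 0.145 to 0.0023 TPM between MCF10A and MCF10Ca1a, with CDH5 at 0 in MCF10A and MCF10Ca1a. The 4 immune markers summed to 8.41 to 13.1, 2.72 to 2.76 and 30.2 to 33.1 TPM in the 3 lines, nearly all of it CD68, with CD3E at 0 in all of them. The part of these marker levels in the results was not tested.

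The 9 genes fell into 4 patterns across the lines. FGFR3 and FGF5 were present in MCF10A and nearly absent from both derived lines. FGFR2 was also highest in MCF10A. FGFR4 and FGFRL1 were lowest in MCF10A and highest in MCF10Ca1a. FGFR1, FGF1, FGF2 and FGFBP1 were highest in MCF10AT1. Bulk libraries cannot tell fewer cells with a transcript from less RNA per cell.

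**Figure D1:**
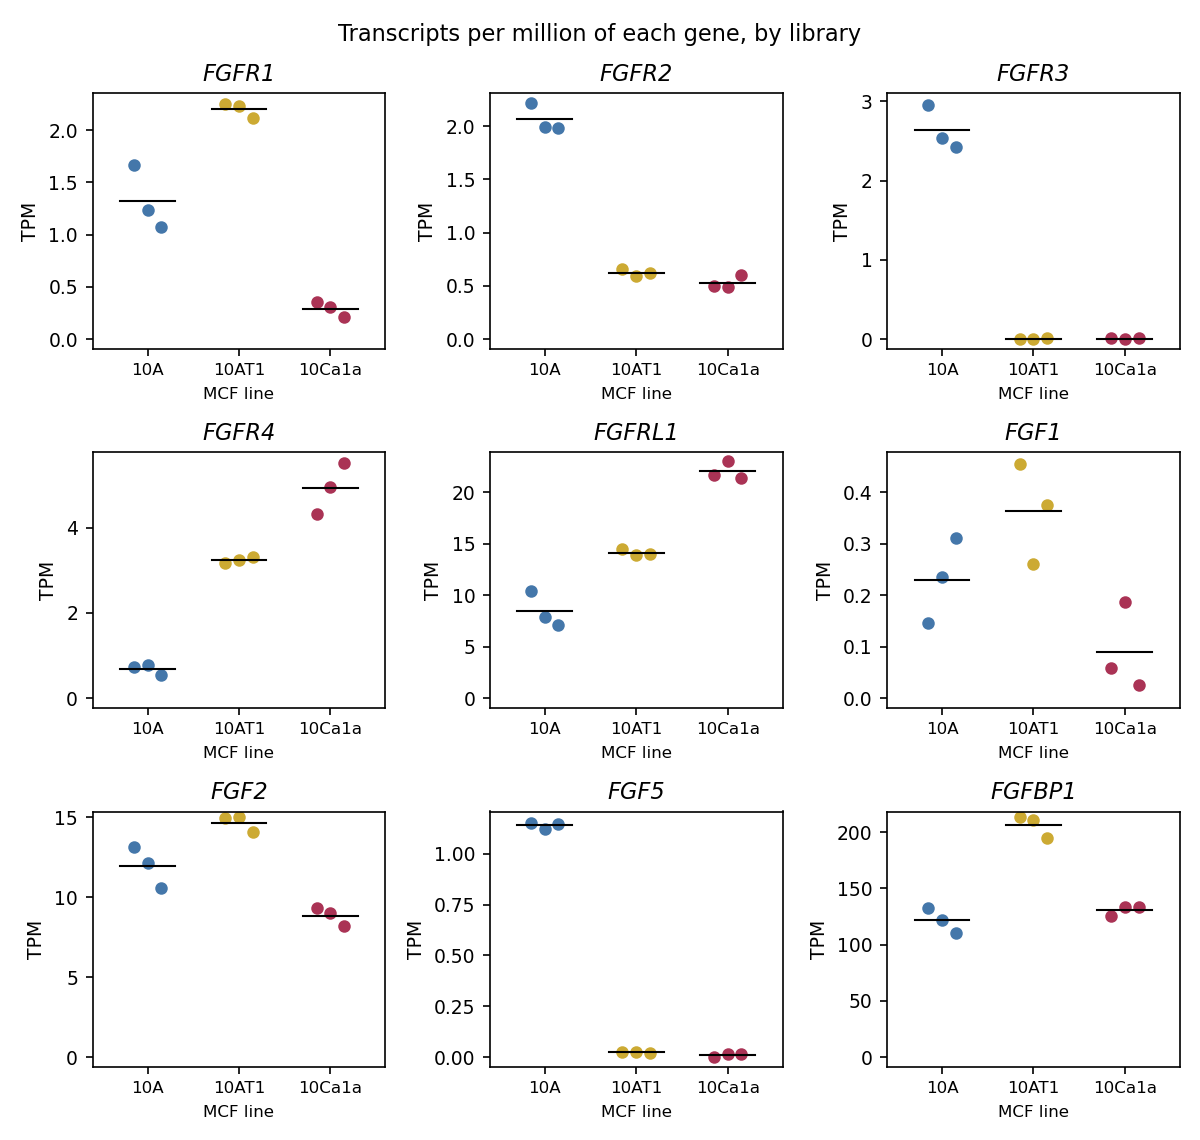
Level of each gene in TPM (vertical axis, linear, a separate scale per panel) in the 3 libraries of each line. Each point is a library and each bar the mean of 3. FGFR3 and FGF5 sit near 0 in MCF10AT1 and MCF10Ca1a, and FGFR4 and FGFRL1 rise from left to right without overlap.

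Counts of 17910 genes were compared between the lines with edgeR's quasi-likelihood test, and p-values were adjusted over all of them by the Benjamini-Hochberg method. All 9 genes passed an adjusted p of 0.05 between MCF10AT1 and MCF10A, where 61.6% of all genes tested did so. Of the 9, 6 were higher and 3 lower in MCF10AT1, against 29.8% and 31.8% of all genes. Between MCF10Ca1a and MCF10AT1, 7 passed, 2 higher and 5 lower, against 78.4% of all genes, of which 38% of those tested were higher and 40.3% lower. Between MCF10Ca1a and MCF10A, 8 passed, 2 higher and 6 lower, against 80.9% of all genes, with 39% higher and 41.9% lower. Passing the test was thus common in every comparison, and the members' counts are a description against that background. A difference of at least 2-fold that also passed the adjusted p of 0.05 was seen for 4, 4 and 7 of the 9 genes, against 18%, 37.7% and 42.9% of all genes tested. The libraries of the lines did not overlap in CPM for 9, 8 and 8 of the 9 genes, against 65.4%, 81.9% and 81.5% of all genes tested. The median log2 fold change of the 9 was 0.78, -1.15 and -2.78, beside -0.004, -0.044 and -0.046 over all genes. All 9 passed the filter on low counts, FGFR3 and FGF5 only through MCF10A and FGF1 only through MCF10A and MCF10AT1. FGFR3 and FGF5 therefore had to be higher in MCF10A than in the derived lines, and FGF1 had to be lower in MCF10Ca1a.

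**Figure D2:**
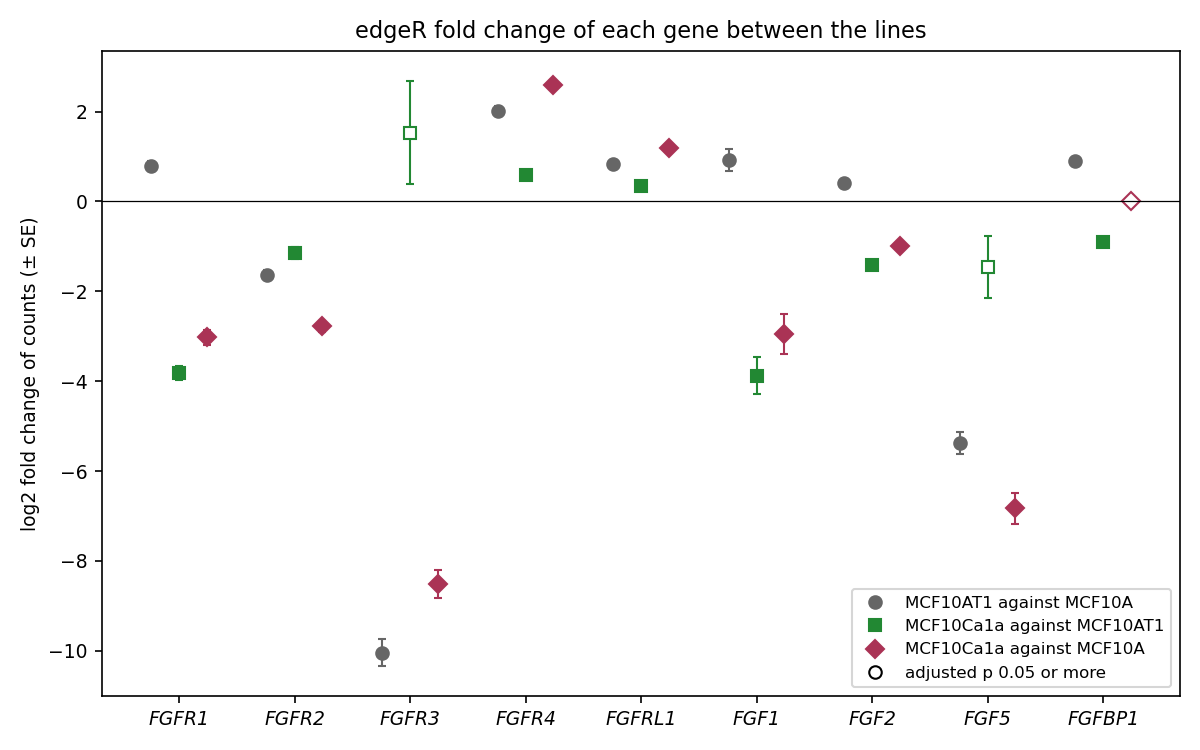
Log2 fold change of counts (vertical axis) for each gene in the 3 comparisons, from edgeR. Bars are the SE, computed as the fold change divided by the square root of the test's F statistic. They can understate the uncertainty near 0 reads. For FGFR3 the counting interval between MCF10A and MCF10AT1 was 271-fold to 59800-fold. Filled symbols passed an adjusted p of 0.05 and open symbols did not: FGFR3 and FGF5 between MCF10Ca1a and MCF10AT1, and FGFBP1 between MCF10Ca1a and MCF10A.

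FGFR3, a receptor tyrosine kinase with both alternative exons, was the most abundant of the 4 signalling receptors in MCF10A. It had 538, 495 and 509 estimated counts there, or 2.95, 2.54 and 2.42 TPM. In MCF10AT1 it had 0, 0 and 1 counts, and in MCF10Ca1a 1, 0 and 1. The MCF10A libraries lay far above all 6 others, and the libraries of the derived lines overlapped at or below the floor of 3 counts per library. Summed over libraries and scaled to library size, MCF10A exceeded MCF10AT1 1510-fold, with a 95% counting interval of 271 to 59800, and MCF10Ca1a 407-fold, with an interval of 112 to 3360. These intervals cover counting error only. The adjusted p-values in edgeR were 6.89e-12 and 7.3e-12, and no fold is given between the derived lines, which were both at the floor (adjusted p 0.299).

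FGF5, a secreted ligand also known as a regulator of hair growth, was also highest in MCF10A. MCF10A held 150, 152 and 181 counts (1.15, 1.12 and 1.15 TPM). MCF10AT1 held 4, 4 and 3, and MCF10Ca1a 0, 1 and 1. The 3 lines did not overlap, but both derived lines were at or near the floor. MCF10A exceeded MCF10AT1 43.1-fold (95% counting interval 23.9 to 86.9, edgeR adjusted p 4.97e-10) and MCF10Ca1a 128-fold (35.1 to 1060, adjusted p 2.97e-10). The difference between MCF10AT1 and MCF10Ca1a did not pass, with a ratio of 2.96 (0.646 to 27.5, adjusted p 0.135).

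The sequences before the start sites of FGFR3 and FGF5 are shown because both genes went from clear expression in MCF10A to a few reads or none in the derived lines. The windows are the 250 bases before the first start listed for each gene in RefSeq (GRCh38.p14), on the plus strand, at chr4:1793043-1793292 for FGFR3 and chr4:80266338-80266587 for FGF5, and capitals mark each CG pair.
FGFR3: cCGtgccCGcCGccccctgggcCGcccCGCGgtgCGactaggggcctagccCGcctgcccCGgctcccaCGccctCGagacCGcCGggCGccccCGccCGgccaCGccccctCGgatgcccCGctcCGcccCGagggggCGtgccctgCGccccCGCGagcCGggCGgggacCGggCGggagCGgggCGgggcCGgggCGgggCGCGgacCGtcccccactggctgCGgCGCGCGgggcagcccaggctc
FGF5: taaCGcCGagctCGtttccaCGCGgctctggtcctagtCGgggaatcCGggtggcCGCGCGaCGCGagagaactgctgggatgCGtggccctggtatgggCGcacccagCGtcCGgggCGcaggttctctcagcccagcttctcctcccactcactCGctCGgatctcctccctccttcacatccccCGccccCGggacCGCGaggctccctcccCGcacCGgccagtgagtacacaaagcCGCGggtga
The FGFR3 window held 40 CG pairs and 86.8% G or C, and the FGF5 window 27 and 68.8%. CG was searched by its letters, which read the same on both strands. Over 35116 RefSeq windows of 250 bases the median was 11 CG pairs, and 97.8% held fewer than FGFR3 and 82.3% fewer than FGF5. A CG-rich start was not particular to the genes that were lost. The first windows listed for FGFR2 and FGF2 held 42 and 33, those of FGFR4 and FGFRL1 24 and 21, and those of FGFBP1 and FGF1 2 each. Windows of other listed starts held 3 in FGF5, 3 to 7 in FGFR2, 2 in FGFR4 and 2 to 7 in FGF1. Of the 9 genes, 8 were matched in this table, and FGFR1 was not. The libraries hold no methylation or chromatin values, so these counts describe the sequence alone.

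FGFR2, the receptor whose IIIb form serves ductal growth, had 2.22, 1.99 and 1.98 TPM in MCF10A, 0.658, 0.589 and 0.625 in MCF10AT1, then 0.498, 0.489 and 0.606 in MCF10Ca1a. MCF10A stood above all other libraries, and on the TPM scale the derived lines overlapped. In counts FGFR2 fell by 1.63 on the log2 scale from MCF10A to MCF10AT1 (SE 0.1, edgeR adjusted p 7.94e-09). It fell by a further 1.15 to MCF10Ca1a (SE 0.13, adjusted p 1.75e-06), where each library held 31 to 37 counts. The ratio of mean TPM for that last step was only -0.23 on the log2 scale, and limma on log2(TPM + 1) and log2(TPM + 0.1) gave no call (adjusted p 0.192 and 0.0753). Over all genes the TPM ratio of MCF10Ca1a to MCF10AT1 lay a median of 0.27 log2 units above the count fold change, and the median TPM ratio itself was 0.25.

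FGFR1, a receptor kinase with both alternative exons, had 1.67, 1.24 and 1.07 TPM in MCF10A and 2.25, 2.23 and 2.12 in MCF10AT1. In MCF10Ca1a it dropped to 0.353, 0.306 and 0.215 TPM, or 20, 16 and 22 counts. The 3 lines did not overlap. FGFR1 was higher in MCF10AT1 than in MCF10A by 0.78 on the log2 scale (SE 0.109, edgeR adjusted p 2.81e-05). From MCF10AT1 to MCF10Ca1a it fell by 3.81 (SE 0.157, adjusted p 4.56e-11), and against MCF10A the log2 fold change of MCF10Ca1a was -3.03 (SE 0.163, adjusted p 5.4e-10). The log2 ratios of mean TPM were smaller, at -2.92 and -2.19. FGFR1 is on chromosome 8 and shares 138 exonic bases (1.0% of its own) with LETM2 and 156 (1.1%) with AC087623.1, both on the opposite strand.

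FGFR4, which has a single form of the third domain, went the other way. It had 0.720, 0.777 and 0.544 TPM in MCF10A, 3.18, 3.25 and 3.31 in MCF10AT1 against 4.31, 4.96 and 5.52 in MCF10Ca1a. Every library of a later line exceeded every library of the line before it. The rise in counts was 2.02 on the log2 scale at the first step (SE 0.0976, edgeR adjusted p 7.17e-10) and 0.58 at the second (SE 0.0871, adjusted p 2.89e-05). MCF10Ca1a exceeded MCF10A by 2.60 (SE 0.0989, adjusted p 1.38e-11), or 6.07-fold in mean CPM.

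FGFRL1 encodes a receptor-like membrane protein that binds FGFs but lacks the kinase domain. It was the most abundant receptor gene in every line, with 10.4, 7.85 and 7.08 TPM in MCF10A, 14.5, 13.9 and 13.9 in MCF10AT1, then 21.6, 23.1 and 21.3 in MCF10Ca1a. As for FGFR4, the lines did not overlap and the order followed the lineage. The log2 fold changes were 0.84 (SE 0.0808, edgeR adjusted p 7.74e-07) and 0.34 (SE 0.0799, adjusted p 0.00132) at the 2 steps and 1.19 (SE 0.0821, adjusted p 8.05e-09) overall. FGFRL1 and FGFR3 are both on chromosome 4, at 1009936 to 1026897 and 1793293 to 1808872, and moved in opposite directions.

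The balance of the signalling receptors turned over between the lines. In MCF10A, FGFR3 held 39.3 ± 0.769% (SD, n = 3) of the summed TPM of FGFR1 to FGFR4, FGFR2 30.9 ± 1.82% (SD, n = 3), FGFR1 19.6 ± 2.2% (SD, n = 3) and FGFR4 10.1 ± 1.5% (SD, n = 3). In MCF10AT1, FGFR4 held 53.5 ± 1.23% (SD, n = 3), FGFR1 36.2 ± 1.16% (SD, n = 3) and FGFR2 10.3 ± 0.555% (SD, n = 3). In MCF10Ca1a, FGFR4 alone held 85.5 ± 1.88% (SD, n = 3), with 9.22 ± 0.632% (SD, n = 3) from FGFR2 and 5.18 ± 1.72% (SD, n = 3) from FGFR1. FGFR4 thus went from the least to the most abundant of the 4. The summed level was 6.71 ± 0.785 TPM in MCF10A, 6.07 ± 0.0139 in MCF10AT1 and 5.76 ± 0.589 in MCF10Ca1a (SD, n = 3 each), and the libraries overlapped. In CPM, which is not corrected for length, the sum was 20.6 ± 1.57, 16.3 ± 0.487 and 11.01 ± 0.656 (SD, n = 3 each) without overlap. The choice of scale thus decides whether the total fell. The scales also differed beyond these genes. Over all genes the TPM ratio of MCF10Ca1a to MCF10AT1 lay a median of 0.27 log2 units above the count fold change. The leading receptor also depended on the scale in MCF10AT1, where FGFR1 held 47.8% of the CPM and FGFR4 38.8%.

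**Figure D3:**
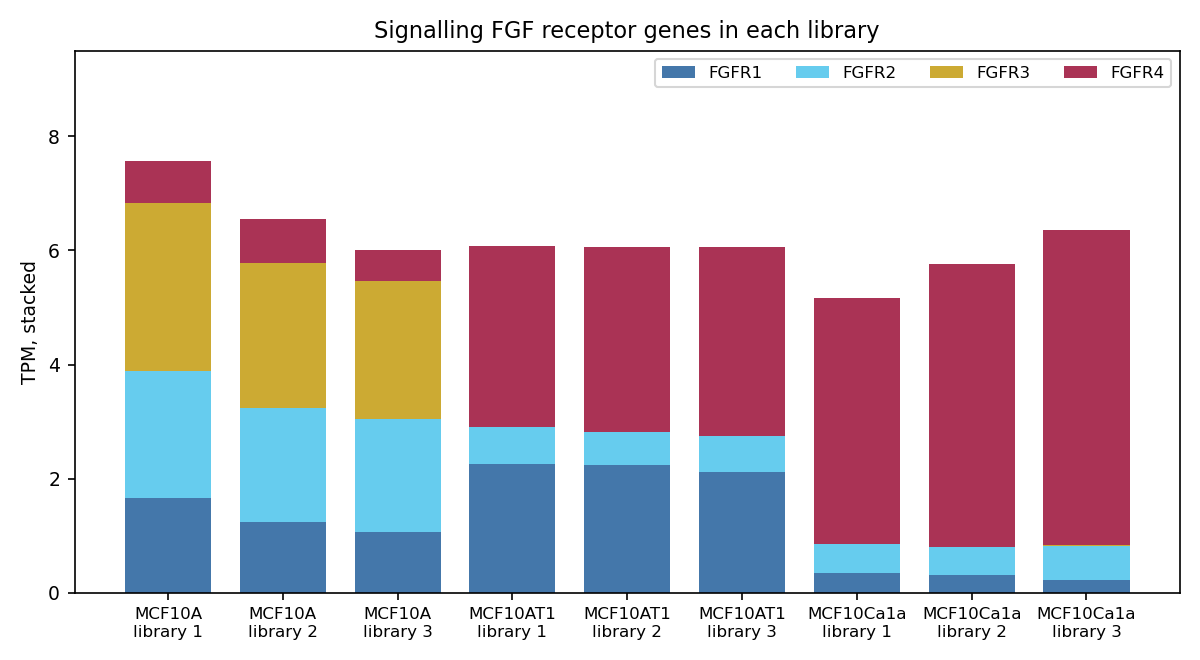
Stacked TPM of the 4 signalling receptor genes (vertical axis) in each library. FGFR3 is seen only in MCF10A at this scale, and FGFR4 fills 83.4% to 86.9% of the bar in the MCF10Ca1a libraries.

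Receptor transcripts were classed by the alternative exon they hold. GENCODE 29 held 10 of the 10 FGFR3 transcripts in the table, 27 of 41 for FGFR2 and 43 of 58 for FGFR1, and the rest could not be classed. Of the FGFR3 transcripts 2 held the IIIb and 2 the IIIc exon alone, and of the FGFR2 transcripts 6 and 8. Of the FGFR1 transcripts 1 held IIIb and 12 held IIIc. FGFR3 in MCF10A had 2.21, 2.06 and 1.67 TPM of IIIb against 0.124, 0.0364 and 0.129 of IIIc. IIIb was thus 94.7%, 98.3% and 92.8% of the TPM of transcripts with either exon, and 74.7%, 81.2% and 69.0% of all FGFR3 TPM. Transcripts with neither exon or both held 17.3% to 25.7%. Nearly all of the IIIb level was FGFR3-202, a protein-coding transcript of 18 exons at a mean of 1.98 TPM.

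FGFR2 was also mainly IIIb in MCF10A. The IIIb share, again of the TPM of transcripts with either exon, was 79.6%, 70.3% and 88.3% in the MCF10A libraries, 100%, 100% and 80.0% in MCF10AT1 against 47.7%, 100% and 87.7% in MCF10Ca1a. The lines overlapped in each pair. With protein-coding transcripts only, the mean share of MCF10Ca1a was 49.2% in place of 78.5%. An exact two-sided permutation test, whose smallest possible p with 3 against 3 libraries is 0.1, gave p = 0.2 for MCF10AT1 against MCF10A, 0.7 for MCF10Ca1a against MCF10AT1 and 0.9 for MCF10Ca1a against MCF10A. All were 1 after adjustment over 6 tests, a design in which none could pass 0.05, so nothing about the share is read from them. The IIIb level itself was 1.39 ± 0.135 TPM in MCF10A, 0.389 ± 0.111 in MCF10AT1 and 0.182 ± 0.0554 in MCF10Ca1a (SD, n = 3 each). These levels did not overlap between the lines. In MCF10Ca1a, however, each library's level came from a different transcript. These were FGFR2-215 at 0.136 TPM, FGFR2-209 at 0.166 and FGFR2-219, which is not protein-coding, at 0.243. Each was listed at 0 in the other libraries of that line, so the small SD there does not reflect a repeated value of any 1 transcript. FGFR2-215, the main IIIb transcript, had 1.54, 1.28 and 1.33 TPM in MCF10A, 0.480, 0.265 and 0.410 in MCF10AT1, then 0.136, 0 and 0 in MCF10Ca1a. The IIIc transcript FGFR2-224 had 0.393, 0.274 and 0.178 TPM in MCF10A and was listed at 0 in all 3 MCF10AT1 libraries, with 0.149, 0 and 0.0341 TPM in MCF10Ca1a. In limma's test of single transcript shares, FGFR2-224 held more of the tested FGFR2 counts in MCF10Ca1a than in MCF10AT1, 21.9% against 0 (adjusted p 0.0282 over 77143 transcripts). In limma fits with 1 library left out this call held in 5 of 9 (adjusted p 5.06e-05 to 0.0788) and was lost without any 1 of the MCF10AT1 libraries or MCF10A replicate 2. Transcripts outside GENCODE 29 held a mean of 41.8% of FGFR2 TPM in MCF10Ca1a (5.02% to 65.98%), against 12.0% in MCF10A and 16.2% in MCF10AT1, and those with neither exon or both held 12.6%, 3.06% and 16.4%. The MCF10Ca1a libraries held ENST00000682904.1, a transcript absent from GENCODE 29, at 0, 0.322 and 0.288 TPM. The MCF10Ca1a shares rest on 37.7 IIIb and 19.4 IIIc counts in all.

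Among FGFR1 transcripts with either exon, IIIc was the main form in MCF10A and MCF10AT1. The IIIc transcripts summed to 1.41, 1.04 and 0.387 TPM in MCF10A, 1.44, 1.25 and 1.27 in MCF10AT1 against 0.0663, 0 and 0.191 in MCF10Ca1a. Of all FGFR1 TPM, IIIc made up 84.8%, 83.7% and 36.2% in MCF10A and 55.9% to 63.8% in MCF10AT1. Transcripts with neither exon or both held 1.16% to 37.99% in MCF10A, with the highest value in replicate 3, and 17.2% to 21.0% in MCF10AT1. Those outside GENCODE 29 held 6.82% to 25.8% and 7.10% to 19.2%. The only IIIb transcript, FGFR1-207, was listed at 0 in 6 of 9 libraries and reached 0.444 TPM in 1 MCF10AT1 library. The 3 exact permutation tests of its IIIb share all gave p = 1. FGFR1-201, a IIIc form, had 0.787, 0.752 and 0 TPM in MCF10A and 1.03, 0 and 0.885 in MCF10AT1. In MCF10Ca1a it was listed at 0 in 2 libraries and had 0.171 TPM in the other. The IIIc transcripts FGFR1-204, FGFR1-206, FGFR1-211 and FGFR1-238 had line means of at most 0.217 TPM and were listed at 0 in MCF10Ca1a. FGFR1 therefore carried the IIIc form beside the IIIb forms of FGFR2 and FGFR3 in MCF10A.

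**Figure D4:**
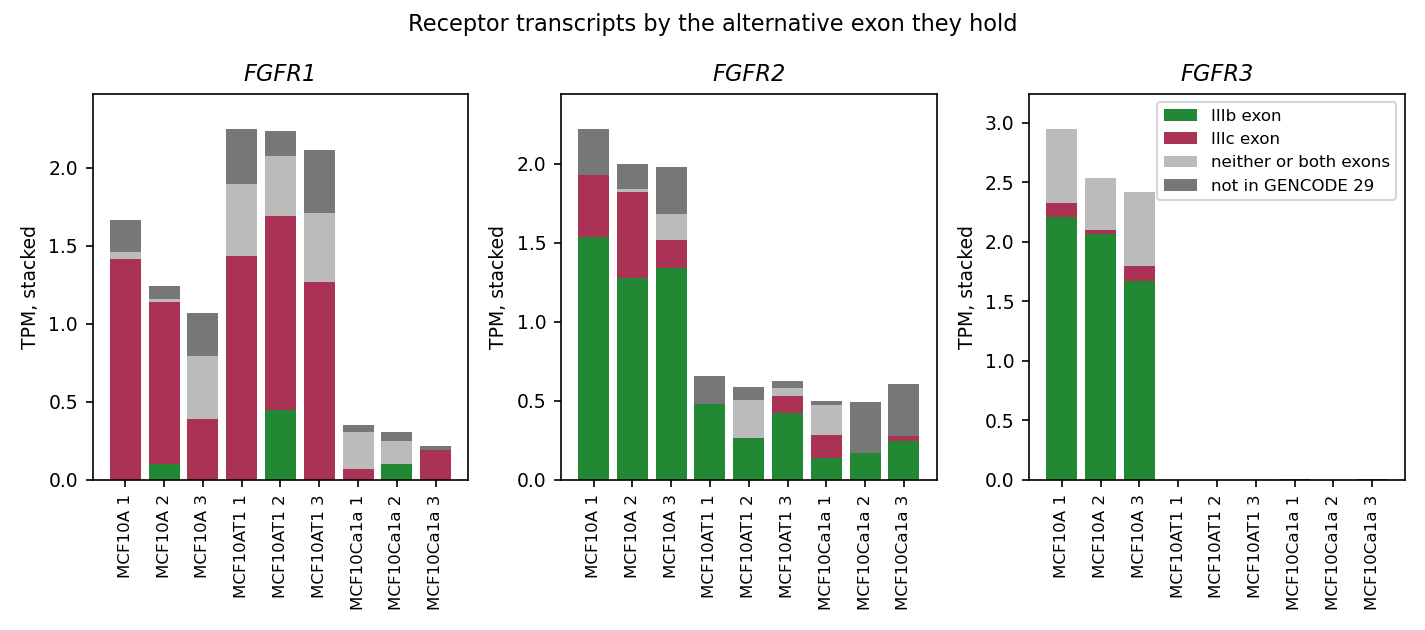
Stacked TPM (vertical axis, a separate scale per panel) of FGFR1, FGFR2 and FGFR3 transcripts in each library, coloured by the alternative exon they hold. FGFR2 and FGFR3 are mostly IIIb in MCF10A, FGFR1 is mostly IIIc in 2 of 3 MCF10A libraries, and transcripts outside GENCODE 29 make up 41.8% of FGFR2 on average in MCF10Ca1a.

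The regulators of this exon choice were present in all lines. ESRP1 and ESRP2, epithelial splicing factors that favour IIIb, had means of 51.1, 73.4 and 65.7 TPM and of 27.0, 23.7 and 38.1 TPM in MCF10A, MCF10AT1 and MCF10Ca1a. ESRP1 was higher in MCF10AT1 than in MCF10A by 0.62 on the log2 scale (edgeR adjusted p 5.88e-07) and in MCF10Ca1a by 0.33 (adjusted p 0.000114), and fell by 0.28 between MCF10AT1 and MCF10Ca1a (adjusted p 0.000471). ESRP2 did not pass at the first step (-0.09, adjusted p 0.124) and rose by 0.49 at the second (adjusted p 4.52e-07) and 0.40 overall (adjusted p 3.35e-06). RBFOX2, which also acts on these exons, changed by 0.34, -0.16 and 0.18. PTBP1, a repressor of the IIIb exon, fell by 0.39, 0.31 and 0.70, and the second step of RBFOX2 and of PTBP1 had the opposite sign in TPM (0.15 and 0.01). SRSF1, a general splicing factor, fell most in the list between MCF10A and MCF10Ca1a, by 1.40 (adjusted p 1.17e-10). Of the 16 regulators, 4 rose and 11 fell between MCF10A and MCF10Ca1a, where 39% and 41.9% of all genes tested did so, with a median of -0.56 beside -0.046 over all genes. In TPM, 5 of the 15 that passed between MCF10Ca1a and MCF10AT1 had the opposite sign.

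Among the ligands, FGF2 was by far the most abundant. FGF2, a broad activator of IIIc receptors, lacks a classical signal peptide. It had 13.1, 12.2 and 10.6 TPM in MCF10A, 14.9, 15.03 and 14.1 in MCF10AT1, then 9.35, 9.04 and 8.17 in MCF10Ca1a. The lines did not overlap. FGF2 rose by 0.41 on the log2 scale at the first step (SE 0.055, edgeR adjusted p 1.99e-05) and fell by 1.40 at the second (SE 0.0608, adjusted p 7.28e-11). Against MCF10A the log2 fold change of MCF10Ca1a was -0.99 (SE 0.0612, adjusted p 2.25e-09), and the log2 ratio of mean TPM was -0.43. FGF2 lies at chr4:122826708-122898236 on the plus strand, and 804 of its exonic bases (11.9%) are shared with NUDT6 on the opposite strand. NUDT6 changed in the same directions, by 0.49, -1.13 and -0.65. The kit marks strand per the labels, but whether counting used strand is not given in the sources used here, so reads of the shared stretch may be assigned to either gene.

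The FGF2 transcripts changed over in MCF10Ca1a. FGF2-204 (6652 bases) had 11.3, 9.99 and 10.5 TPM in MCF10A, 11.1, 11.7 and 8.92 in MCF10AT1 against 0, 1.503 and 0 in MCF10Ca1a. FGF2-202 (3880 bases) had 1.83, 2.04 and 0 TPM in MCF10A, 2.80, 3.11 and 3.82 in MCF10AT1, then 8.09, 7.28 and 6.98 in MCF10Ca1a. Both start at the same base and hold 3 exons and 465 coding bases, and the last exon is 6026 bases long in FGF2-204 and 3254 in FGF2-202. FGF2-204 thus held 89.1 ± 8.85% of FGF2 TPM in MCF10A, 71.9 ± 7.46% in MCF10AT1 and 5.54 ± 9.6% in MCF10Ca1a (SD, n = 3 each), and FGF2-202 held 84.2 ± 3.18% (SD, n = 3) in MCF10Ca1a. In limma's test of transcript shares, with adjustment over 77143 transcripts, the FGF2-204 share was lower in MCF10Ca1a than in MCF10A (adjusted p 0.0152) and than in MCF10AT1 (adjusted p 0.0442). With 1 library left out the first limma call held in 8 of 9 fits (adjusted p 0.000965 to 0.0507, lost without MCF10A replicate 3). The second held in 1 of 9, without MCF10Ca1a replicate 2 (0.00255), and had an adjusted p of 0.0558 to 0.118 in the others. The rise of FGF2-202 against MCF10A missed the threshold (adjusted p 0.0524). The transcript FGF2-201, with 864 coding bases, had means of 0.0712, 0.860 and 0.897 TPM. Both main transcripts share bases with NUDT6 exons, 804 in FGF2-204 and 651 in FGF2-202.

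FGF1, a ligand that binds all receptor forms, was scarce. MCF10A held 22, 20 and 35 counts of it. MCF10AT1 held 53, 40 and 50, and MCF10Ca1a 1, 2 and 2. In TPM the values were 0.146, 0.234 and 0.310, then 0.456, 0.260 and 0.375, then 0.0586, 0.186 and 0.0251, and neighbouring lines overlapped. In counts FGF1 was higher in MCF10AT1 than in MCF10A by 0.92 on the log2 scale (SE 0.245, edgeR adjusted p 0.00494), a call that was lost with the length-scaled and scaled counts (adjusted p 0.164 and 0.264) and in TPM (0.159 and 0.23). MCF10AT1 exceeded MCF10Ca1a 15.4-fold (95% counting interval 6.44 to 48.1, adjusted p 8.64e-07), and MCF10A did so 8.13-fold (3.34 to 25.7, adjusted p 3.05e-05). The last call was lost with the scaled counts (adjusted p 0.0503) and in log2(TPM + 1) (0.0751). Only FGF1-213 and FGF1-201 could be tested for their share, so their shares are complements and give 1 test. FGF1-213 held 94.8% of the counts of this pair in MCF10A and 7.87% in MCF10AT1 (limma adjusted p 0.0332). Each passed the filter only through the line where it was high, so the pair had to differ, and with 1 library left out the call held in 1 of 8 fits (0.00112 to 0.0978), that without MCF10AT1 replicate 2. Without MCF10A replicate 3 the pair could not be tested, and with the replicate number as a block it was not called. FGF1-203, outside the test, had means of 0.0971 and 0.0991 TPM in these lines, beside 0.0752 and 0.0161 for FGF1-213. FGF1-213 starts at base 142644301 and FGF1-201 at base 142686385 of chromosome 5 on the minus strand, and both hold 465 coding bases.

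FGFBP1, a secreted protein that releases FGFs stored on heparan sulphate, had the highest level of the 9 genes in every line. It had 132.7, 121.5 and 110.0 TPM in MCF10A, 213.1, 211.1 and 195.1 in MCF10AT1 against 125.6, 133.8 and 133.0 in MCF10Ca1a. MCF10AT1 stood above both other lines, which overlapped. FGFBP1 rose by 0.91 on the log2 scale at the first step (SE 0.0538, edgeR adjusted p 5.71e-09) and fell by 0.90 at the second (SE 0.0542, adjusted p 2.15e-09). The net difference between MCF10Ca1a and MCF10A was 0.0012 on the log2 scale (SE 0.0541, adjusted p 0.985).

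In TPM, the order of the genes in MCF10A ran FGFBP1, FGF2, FGFRL1, FGFR3, FGFR2, FGFR1, FGF5, FGFR4 and FGF1, and only FGFR1 and FGF5 overlapped as neighbours. In MCF10AT1 it ran FGFBP1, FGF2, FGFRL1, FGFR4, FGFR1, FGFR2, FGF1, FGF5 and FGFR3, with FGF2 and FGFRL1 overlapping. In MCF10Ca1a FGFRL1 passed FGF2, and FGFR4 followed ahead of FGFR2, FGFR1, FGF1, FGF5 and FGFR3, of which the last 2 overlapped.

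Of the 157 transcripts of the 9 genes, 36 in 8 genes could be tested for their share. The share test passed 4 between MCF10AT1 and MCF10A, 3 between MCF10Ca1a and MCF10AT1 and 8 between MCF10Ca1a and MCF10A, against 1.47%, 12.4% and 17.1% of all transcripts tested. A share has little meaning where the gene has no reads, and 2 and 5 of the first and last counts came from FGFR3. With only genes at 10 counts or more in every library of both lines, a limit set after the data were seen, 2, 3 and 3 passed of 29, 27 and 27, the first 2 being the FGF1 pair. Beside those of FGF1 and FGF2 these were FGFRL1-202, which rose from 0.586% to 11.1% of tested FGFRL1 counts between MCF10A and MCF10Ca1a (limma adjusted p 0.0256), and FGFR2-224, FGFR4-210 and ENST00000682904.1. ENST00000682904.1, which passed the filter only through MCF10Ca1a, held 58.4% of tested FGFR2 counts there and 0 in MCF10A (adjusted p 0.0348), and FGFR4-210 held 3.06% of tested FGFR4 counts in MCF10AT1 and 0.218% in MCF10Ca1a (adjusted p 0.0108). FGFR4-210 passed the filter only through MCF10AT1, so it had to differ there. FGFRL1-202, at a mean of 9.93 counts in MCF10A, passed the filter only through the derived lines, where its counts were higher. With 1 library left out, the limma call of FGFRL1-202 held in 6 of 9 fits (0.00208 to 0.0697) and was lost without any 1 of the MCF10Ca1a libraries, that of FGFR4-210 held in 9 of 9 (7.65e-05 to 0.0446), and that of ENST00000682904.1 in 1 of 7, without MCF10Ca1a replicate 1 (0.000698 to 0.0907). ENST00000682904.1 could not be tested without MCF10Ca1a replicate 2 or 3. FGFRL1-202 had 0.107, 0 and 0.0406 TPM in MCF10A, 0.326, 0.297 and 0.311 in MCF10AT1, then 2.47, 2.27 and 1.44 in MCF10Ca1a. It encodes the same 1512 coding bases as the main transcript FGFRL1-201 and has 8 exons in place of 6. FGFRL1-201 had means of 6.12, 7.56 and 14.0 TPM. FGFRL1-205 had 6.58, 0 and 0 TPM in MCF10A and means of 5.53 and 4.002 in the derived lines, and FGFRL1-207, which is not protein-coding, had means of 0.0690, 0.653 and 1.75. FGFBP1 had a single transcript, FGFBP1-201. FGF5-201 had means of 0.810, 0.0169 and 0 TPM. FGFR4-201 and FGFR4-207 both hold 2406 coding bases, and their means were 0.444, 1.19 and 2.54 TPM and 0.163, 0.722 and 1.26 TPM.

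Of 15 other secreted FGF ligands, 2 passed the filter on counts. FGF21, a hormone-like ligand that needs the co-receptor KLB, was listed at 0 TPM in all 6 libraries of MCF10A and MCF10AT1 and had 0.748, 0.376 and 0.708 TPM in MCF10Ca1a (edgeR adjusted p 9.89e-06 against MCF10A). It passed the count filter only through MCF10Ca1a, so it had to differ there. KLB itself was listed at 0 in every line. FGF18 had means of 0.0306, 0.156 and 0.241 TPM and rose by 2.46 on the log2 scale at the first step (edgeR adjusted p 0.000213). FGF7 and FGF10, the stromal ligands of the IIIb form of FGFR2, had means of at most 0.0468 TPM and 0. Among the 4 intracellular FGF homologous factors, which do not activate receptors, FGF11 reached 1 TPM, with 0.511, 0.275 and 1.40 TPM. FGF13 fell by 3.29 on the log2 scale from MCF10A to MCF10Ca1a (edgeR adjusted p 6.14e-05), where its mean was 0.0045 TPM. FGF18 in MCF10A and FGF13 in MCF10Ca1a were too low to pass the count filter through those lines. FGF18 therefore had to be lower in MCF10A, and FGF13 in MCF10Ca1a.

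The proteoglycans and other co-receptors included both large rises and large falls in MCF10Ca1a. Of 12 tested in this list of 16, 3 rose and 8 fell against MCF10A, beside 39% and 41.9% of all genes, with a median log2 fold change of -1.57 beside -0.046. GPC1 and SDC4, cell-surface heparan sulphate proteoglycans, rose from means of 17.3 to 111 TPM (edgeR log2 fold change 2.62, adjusted p 3.42e-12) and from 106 to 427 TPM (1.88, adjusted p 1.16e-11). FLRT1, a membrane protein that can bind FGF receptors, was listed at 0 in MCF10A and had a mean of 0.154 TPM in MCF10Ca1a. SDC3 fell from 17.2 to 0.293 TPM (-5.99, adjusted p 2.55e-13) and FLRT2 from 15.7 to 0.146 TPM (-7.09, adjusted p 4.1e-14). ANOS1 had a mean of 0.152 TPM in MCF10A and was listed at 0 in all 6 libraries of the derived lines. It passed the count filter only through MCF10A, and FLRT1 only through MCF10Ca1a, so both had to differ. In MCF10AT1 against MCF10A, 5 rose and 2 fell, beside 29.8% and 31.8% of all genes.

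Of 16 genes that build or edit heparan sulphate, 3 rose and 9 fell between MCF10A and MCF10Ca1a, with a median of -0.32. This is 12 of 16 called, against 80.9% of all genes (39% higher and 41.9% lower). HS3ST1, a sulphotransferase, rose by 3.62 on the log2 scale to 2.61 TPM (edgeR adjusted p 3.97e-12), and HPSE, the enzyme that cuts the chains, fell by 3.93 from 4.85 to 0.477 TPM (adjusted p 8.16e-11). SULF2, which removes sulphate groups from the chains, had 15.6, 47.8 and 9.69 TPM in the 3 lines. Of 14 adaptors and effectors, 9 rose and 4 fell in the same comparison, beside the same 39% and 41.9% of all genes, with a median of 0.33. SHC1 rose most, by 1.03 (adjusted p 1.23e-09), and SH2B1 fell most, by 1.79 (adjusted p 1.9e-11), while FRS2 did not pass (-0.08, adjusted p 0.159).

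The feedback inhibitors and target genes of FGF and other RAS signals were examined last. Of 14, 11 rose and 3 fell between MCF10A and MCF10AT1, where 29.8% and 31.8% of all genes did so, with a median of 0.61 beside -0.004 over all genes. EGR1 rose from 52.6 to 128 TPM (edgeR log2 fold change 1.43, adjusted p 9.21e-11), DUSP6 from 76.3 to 138 TPM (1.03, adjusted p 5.46e-10) and SPRY2 from 18.8 to 28.6 TPM (0.74, adjusted p 1.56e-08). Between MCF10AT1 and MCF10Ca1a 6 rose and 6 fell, beside 38% and 40.3% of all genes. Between MCF10A and MCF10Ca1a 7 rose and 5 fell, beside 39% and 41.9%, with a median of 0.28, DUSP5 rising most (2.53, adjusted p 4.37e-14) and SPRY2 falling most (-0.45, adjusted p 2.62e-06). These genes also respond to epidermal growth factor and to activated HRAS, and the part of either in these values was not tested.

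**Figure D5:**
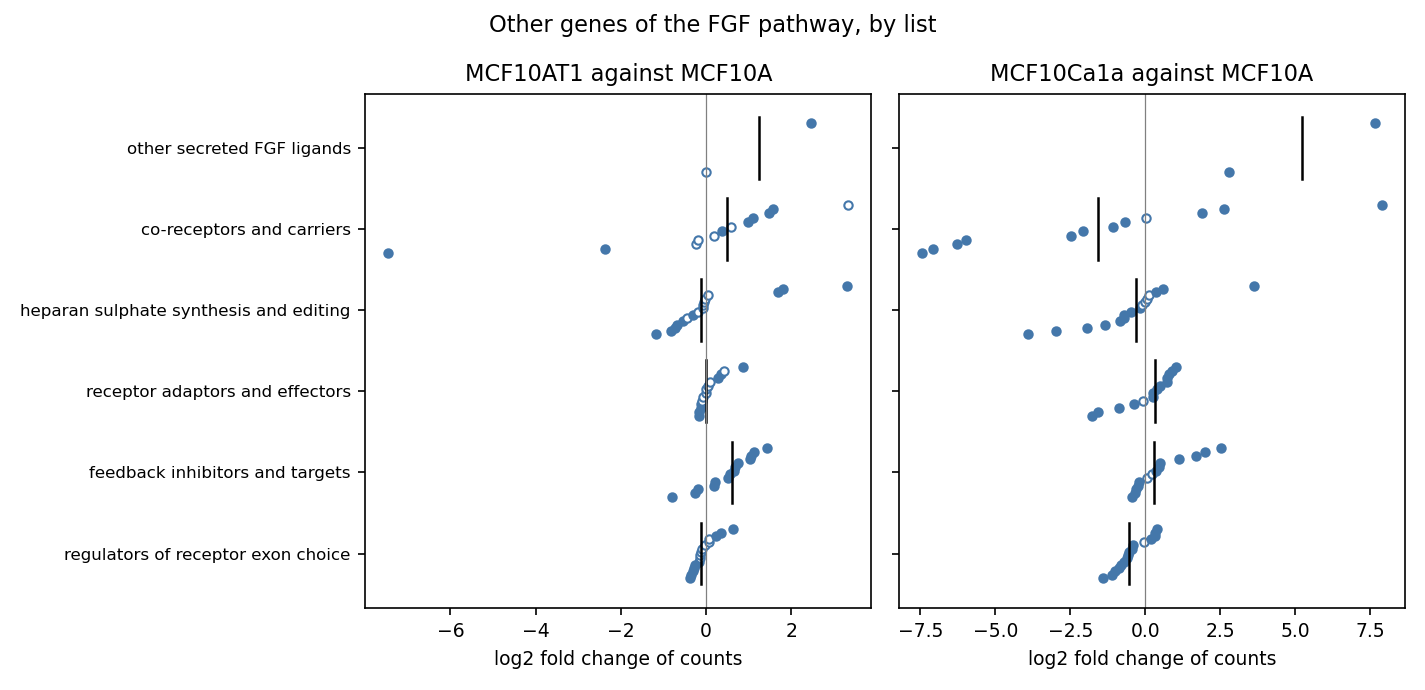
Log2 fold change of counts (horizontal axis) of the tested genes of 6 lists, in MCF10AT1 (left) and MCF10Ca1a (right) against MCF10A. Filled points passed an adjusted p of 0.05 in edgeR, open points did not, and vertical bars are list medians, at 0.61 and 0.28 for the feedback list.

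The genes whose pattern over the 9 libraries lay nearest to each member were found by the root mean square difference of centred log2 CPM. FGFR1 was nearest to ZNF703 and TENM4, FGFR2 to TIMP1 and SH2D2A (0.123), and FGFR3 to ZNF736 and GPR27. FGFR4 was nearest to KCNQ3 and SH3TC1, and FGFRL1 to SNX30 and FLII (0.0457). FGF2 was nearest to CTPS2 and CAV2, FGF5 to SENCR (0.285) and SRSF12, and FGFBP1 to MIR4435-2HG (0.0664) and DENND2D (0.0671). FGF1 was under the level of 1 CPM set for this measure. The distances of FGFR3 (0.34 and 0.343) and FGF5 were the largest of the 8 members measured.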

How the data were processed

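Polyadenylated RNA of the 3 lines was sequenced with a stranded Illumina kit, per the labels. The submitters' processing notes name Salmon and hg38, and further settings are not given in the sources used here. The deposited tables hold estimated counts per gene and per transcript, length-scaled and scaled gene counts, and TPM per gene and per transcript, all as the authors computed them. The 9 genes, the gene lists and the tests were chosen with earlier results of these data known.

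The deposited estimated counts were rounded and filtered with filterByExpr (minimum count 10, minimum total 15), leaving 17910 of 62666 genes. The 9 libraries entered 1 fit in edgeR 4.0.16 (R 4.3.3) with TMM normalisation and the quasi-likelihood test. The SE of a fold change is its size divided by the square root of the test's F statistic. Transcript shares were tested with limma 3.58.1 on log2 ratios of each transcript's counts to the gene's other transcripts, with an offset of 0.5 and a mean of 10 counts in a line. How surely reads were assigned among transcripts was not used here. Exons came from GENCODE 29, with the sequences of the FGFR1 and FGFR2 exons not reported here, and promoters from the RefSeq table of GRCh38.p14. Counting intervals are exact 95% intervals for a ratio of counts. Replicate numbers did not pair libraries: 0 of 9 correlations of deviations between same-numbered libraries exceeded 0.1 (-0.0597 to 0.0451).

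Named beside the 9 genes were the 2 nearest in pattern, the called gene of each list that rose and fell most between MCF10A and MCF10Ca1a, 4 exon-choice regulators, ligands at 1 TPM, and transcripts at a mean of 0.5 TPM (0.1 for IIIb or IIIc). Other genes and transcripts named in the text, such as EGR1, DUSP6, SULF2, SDC3, KLB, FGFR2-209, FGFR2-219 and the markers, were chosen after their values were seen. The tests were tested on simulated data, where the share test missed most of the smaller changes and diffSpliceDGE, an alternative, called more unchanged than changed transcripts. Other alternatives were DESeq2 1.42.0, its size factors, no filter, the other count tables, limma on TPM, a replicate block, fits of 2 lines alone, and leaving out each library.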

Additional observations from a re-analysis of the deposited data

How the results depend on the processing

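The members called stayed within 8 to 9, 6 to 7 and 7 to 8 over all alternatives, and of 484 refitted fold changes of single genes none changed sign where called and 8 lost the call: FGF1 in 6, with the length-scaled or scaled counts or in TPM, and FGFR2 between MCF10Ca1a and MCF10AT1 in both TPM fits. With the replicate number as a block, 9, 7 and 8 members were called. Transcript calls were less stable. In MCF10AT1 against MCF10A, MCF10Ca1a against MCF10AT1 and MCF10Ca1a against MCF10A there were 7, 13 and 22 with TPM and an offset of 0.1. An offset of 1 gave 6 in the second comparison, and a filter at a mean of 1 count gave 6 in the second and 20 in the third. The replicate block gave 1 in the first, diffSpliceDGE 2 in the first and 3 in the third, and genes at 10 counts or more, added after the data were seen, 2 in the first and 3 in the third. With 1 library left out they ran from 2 to 4, 1 to 4 and 6 to 9. The libraries whose removal moved a count past 1.5 times were MCF10A replicate 3 (2 in the first comparison), MCF10AT1 replicate 1 (2 in the first, 1 in the second) and MCF10AT1 replicate 3 (2 in the first). With protein-coding transcripts only, the FGFR2 IIIb share of MCF10Ca1a was 49.2% in place of 78.5%. The causes were not tested. MCF10Ca1a had the lowest depth, which limits its low genes.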

Other observations

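The genes within 1 Mb of each member were read after the values of the members were seen, and are given as a description with no test of the group. FGFR2 had 9 tested neighbours on chromosome 10, of which 8 fell between MCF10A and MCF10Ca1a (median log2 fold change over the 9 of -1.39) and 8 between MCF10AT1 and MCF10Ca1a (median -1.10), where 41.9% and 40.3% of all genes tested fell. They included HTRA1, a secreted protease (edgeR log2 fold change -6.45 against MCF10A, adjusted p 4.36e-15), and ATE1, the gene next to FGFR2 (-1.50, adjusted p 3.22e-12). Between MCF10A and MCF10AT1, where FGFR2 itself fell by 1.63, 5 of the 9 rose and 1 fell, beside 29.8% and 31.8% of all genes. Such neighbours were not particular to FGFR2. Around FGFBP1, 5 of 7 tested neighbours rose and 2 fell between MCF10A and MCF10AT1. Between MCF10AT1 and MCF10Ca1a 0 rose and 6 fell, beside 38% and 40.3% of all genes.

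Around FGFR1, 22 neighbours were tested, and 10 rose and 8 fell between MCF10A and MCF10Ca1a, with a median of 0.095, beside 39% and 41.9% of all genes. ZNF703, the gene nearest to FGFR1 in pattern, is 700194 bases away and changed by 0.92, -4.13 and -3.21 in the 3 comparisons, beside 0.78, -3.81 and -3.03 for FGFR1. Of the 40 tested neighbours of FGFR4, 12 rose and 21 fell in MCF10Ca1a against MCF10A. All 40 had a lower fold change than FGFR4 there, and 32 of 40 did in MCF10Ca1a against MCF10AT1.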
